A study of Mus musculus with 42 samples.

Results

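The horizontal basal cell genes are a list of 8 genes, Krt5, Krt14, Krt15, Krt17, Trp63, Icam1, Itgb4 and Cav1, found by symbol among the 44674 genes of the count table. All 8 had enough counts to be tested, among 21168 genes for the pulldown-to-input ratio and among 20451 genes for the inputs. The libraries come from the main olfactory epithelium of male C57BL/6NCrl mice aged 8 to 12 weeks, which spent 1 h with no odour or with the odour of normal chow (NCD), of bacon-flavoured chow (labelled Bacon, the BFD of the study) or of a lard-based high-fat diet (labelled HFD). No transgene or deletion is named for any group. Each pool combined 4 epithelia and gave 2 libraries, a pulldown made with an antibody against phosphorylated ribosomal protein S6 (pS6-ribotrap) and an input of the whole tissue. There were 5 pools without odour, 6 with NCD odour, 5 with Bacon odour and 5 with HFD odour, so that the p-values below measure the spread between these 21 pools.

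Horizontal basal cells are the reserve stem cells of the olfactory epithelium. They lie flat on the basal lamina, divide rarely while the tissue is intact, and can rebuild neurons and supporting cells after injury. They make the keratin pair of basal epithelial layers, and p63, the product of Trp63, keeps them undifferentiated and dormant. S6 is a protein of the small ribosomal subunit that is phosphorylated in recently active cells, so the pulldown is used to enrich the messenger RNA of neurons that met an odour. The ratio of pulldown to input of a basal cell gene therefore reads how much of its messenger RNA was recovered with phosphorylated ribosomes relative to the average gene.

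On GRCm38, Krt14 (chr11:100203162-100207548), Krt15 (chr11:100131758-100135928) and Krt17 (chr11:100256217-100261029) lie in 1 cluster of type I keratins on the minus strand, and Krt5 lies at chr15:101707070-101712898, also on the minus strand. Itgb4 lies at chr11:115974709-116008412, Trp63 at chr16:25683763-25892102, Icam1 at chr9:21015985-21028817 and Cav1 at chr6:17306335-17341452, all on the plus strand. Keratins have close relatives, and the sequences below are shown because they are identical between 2 genes. Salmon, the program the authors used to estimate the counts, divides reads that match more than 1 gene between the copies by estimation. Krt14 shares the longest run of its coding sequence with Krt16, 134 bases that fill part of exon 1 (chr11:100207017-100207150 on the minus strand of GRCm38, with the copy at chr11:100248476-100248609), and it shares 71 bases of exon 6 with Krt17 (chr11:100204114-100204184 and chr11:100257439-100257509). The reads were 75 bases long, so the run shared with Krt16 can hold a whole read and the run shared with Krt17 cannot. They were sequenced in pairs, so a single read within a run does not settle how its pair was assigned.
Krt14 and Krt16: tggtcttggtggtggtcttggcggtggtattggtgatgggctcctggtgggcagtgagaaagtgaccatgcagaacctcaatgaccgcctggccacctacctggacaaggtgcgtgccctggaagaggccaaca
Krt14 and Krt17: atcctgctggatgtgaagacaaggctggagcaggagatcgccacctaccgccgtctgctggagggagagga
Of the words of 31 bases in the annotated transcripts, 28.2% in Krt14, 15.8% in Krt5 and 15.8% in Krt17 also occurred in another gene, against 3.74% in Krt15, 5.83% in Itgb4 and none in Trp63 or Cav1. Icam1 stood at 14.8%, with words spread over 3131 other genes. Of the copies outside the list, Krt16 and Krt6a were scarce in these libraries. Krt16 had a median of 0 CPM (read counts scaled to a common library size) and a highest value of 0.525 CPM over the 42 libraries, and Krt6a a median of 0.114 and a highest value of 0.637 CPM, so neither was tested. The values of the keratins among the 8 genes carry this uncertainty of assignment.

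The promoters of Icam1 and Krt5 are shown because these genes lay far apart in their recovery in the pulldown. The RefSeq table held promoters for 4 of the 8 genes, given here as the 300 bases from 250 before to 50 after the annotated start on GRCm38.p6. Icam1 lies at chr9:21015690-21015989 on the plus strand and Krt5 at chr15:101712856-101713155 on the minus strand. Capitals mark the letters TATAAA, GGANNTTCC (the outline of an NF-kB site) and CATG (the core of a site for the p53 family, to which p63 belongs), searched on both strands.
Icam1: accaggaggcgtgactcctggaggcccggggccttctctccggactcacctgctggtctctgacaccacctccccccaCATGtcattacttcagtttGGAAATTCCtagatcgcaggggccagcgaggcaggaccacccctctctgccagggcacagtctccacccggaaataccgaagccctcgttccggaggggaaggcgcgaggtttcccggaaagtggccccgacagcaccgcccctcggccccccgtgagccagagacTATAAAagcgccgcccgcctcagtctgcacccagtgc
Krt5: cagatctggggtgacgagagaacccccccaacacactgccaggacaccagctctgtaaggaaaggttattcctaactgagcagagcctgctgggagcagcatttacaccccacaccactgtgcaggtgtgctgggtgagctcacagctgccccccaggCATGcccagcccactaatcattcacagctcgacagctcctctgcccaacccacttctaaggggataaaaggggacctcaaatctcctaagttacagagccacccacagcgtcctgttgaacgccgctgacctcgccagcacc
The Icam1 window held TATAAA, GGANNTTCC and CATG, and the Krt5 window held CATG alone. TATAAA occurred in 13.6% of 32817 promoter windows of that length, GGANNTTCC in 4.26% and CATG in 61.1%, so the match of the 4-letter CATG carries little information. A match describes the letters of the window and no binding was measured.

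All libraries had similar depth, 25392812 to 36738330 counts in the pulldowns and 24839555 to 36781553 in the inputs. Levels are given as CPM of the scaled library (TMM, which sets the average gene equal between libraries), and the counts behind them ranged from 27 for Krt15 to 1303 for Krt5 in an input and from 4 for Krt17 to 660 for Krt5 in a pulldown. Per kilobase of exon, the mean input level over the 21 pools was highest for Krt5 with 15.2 ± 1.27 CPM per kilobase (SD, n = 21), followed by Krt14 with 4.38 ± 0.711 and Trp63 with 2.49 ± 0.146. Below them came Krt17 with 1.33 ± 0.277, Cav1 with 1.04 ± 0.185, Itgb4 with 0.984 ± 0.137, Krt15 with 0.815 ± 0.340 and Icam1 with 0.440 ± 0.0848 CPM per kilobase. Cav1, Itgb4 and Krt15 lay within 1 SD of each other. All 8 genes were read in each of the 42 libraries, the defining genes Krt5, Krt14 and Trp63 among them. Counts of whole tissue do not show from which cells these reads came. Several of the genes are not particular to these cells, since Icam1 and Cav1 are also made by endothelium and Krt14 and Krt17 by other basal and myoepithelial cells. In whole tissue, fewer cells of a type and less RNA per cell cannot be told apart.

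All 8 horizontal basal cell genes were lower in the pulldown than in the input. Over the mean of the 4 odour groups (edgeR's quasi-likelihood test with a term for each pool, adjusted over all genes tested), 40.5% of all genes were lower at an adjusted p under 0.05. The median log2 fold change of the 8 genes was -1.83, against -0.01 for all genes. The genes formed a strongly depleted set of keratins and Trp63 and a mildly depleted set of Icam1, Itgb4 and Cav1. Leaving out Bacon pool 1, or the 5 pools of highest mitochondrial ratio described below, kept all 8 calls.

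Among the keratins, Krt5, the type II partner of basal layers, fell by 2.55 on the log2 scale (SE 0.16, edgeR adjusted p = 1.81e-11), to 17.1% of the input. Only 230 of the 21168 genes had a lower fold change. Krt14, the type I partner of Krt5, fell by 2.13 (SE 0.10, edgeR adjusted p = 3.39e-16), to 22.9%. Krt17, a type I keratin of basal and stressed epithelia, fell by 2.11 (SE 0.14, edgeR adjusted p = 2.57e-13), and Krt15, a type I keratin of epithelial stem cells, fell by 1.56 (SE 0.15, edgeR adjusted p = 3.83e-10). Krt15 was the least depleted of the 4 keratins.

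Trp63, the transcription factor of basal cells, had the lowest ratio of the list. It fell by 2.85 on the log2 scale (SE 0.17, edgeR adjusted p = 1.16e-11), to 13.9% of the input, with 126 genes below it. Without odour its pulldown held 2.67, 2.83, 2.84, 3.30 and 6.05 CPM against inputs of 20.5, 20.4, 22.2, 21.5 and 21.7 CPM (pools 1, 2, 3, 4 and 6). The input was even, and pool 6 stood apart only in the pulldown. With HFD odour the pulldown ranged from 1.82 to 2.78 CPM and the input from 19.0 to 21.5 CPM, so that no pulldown came near an input.

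The adhesion and membrane genes were nearer to the average gene. Itgb4, the integrin of hemidesmosomes, which rivet basal cells to the lamina, fell by 0.71 on the log2 scale (SE 0.06, edgeR adjusted p = 1.42e-11), to 61.0% of the input. Cav1, the coat protein of caveolae, fell by 0.61 (SE 0.08, edgeR adjusted p = 4.41e-08), to 65.7%. Icam1, an adhesion molecule for white blood cells and a surface marker of horizontal basal cells, fell by 0.54 (SE 0.10, edgeR adjusted p = 2.07e-05), to 68.8%. For these genes 3529, 4175 and 4678 genes had a lower fold change. The pulldown of Icam1 exceeded its input in 3 of the 21 pools, whereas that of Itgb4 and Cav1 stayed below the input in all 21.

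**Figure D1:**
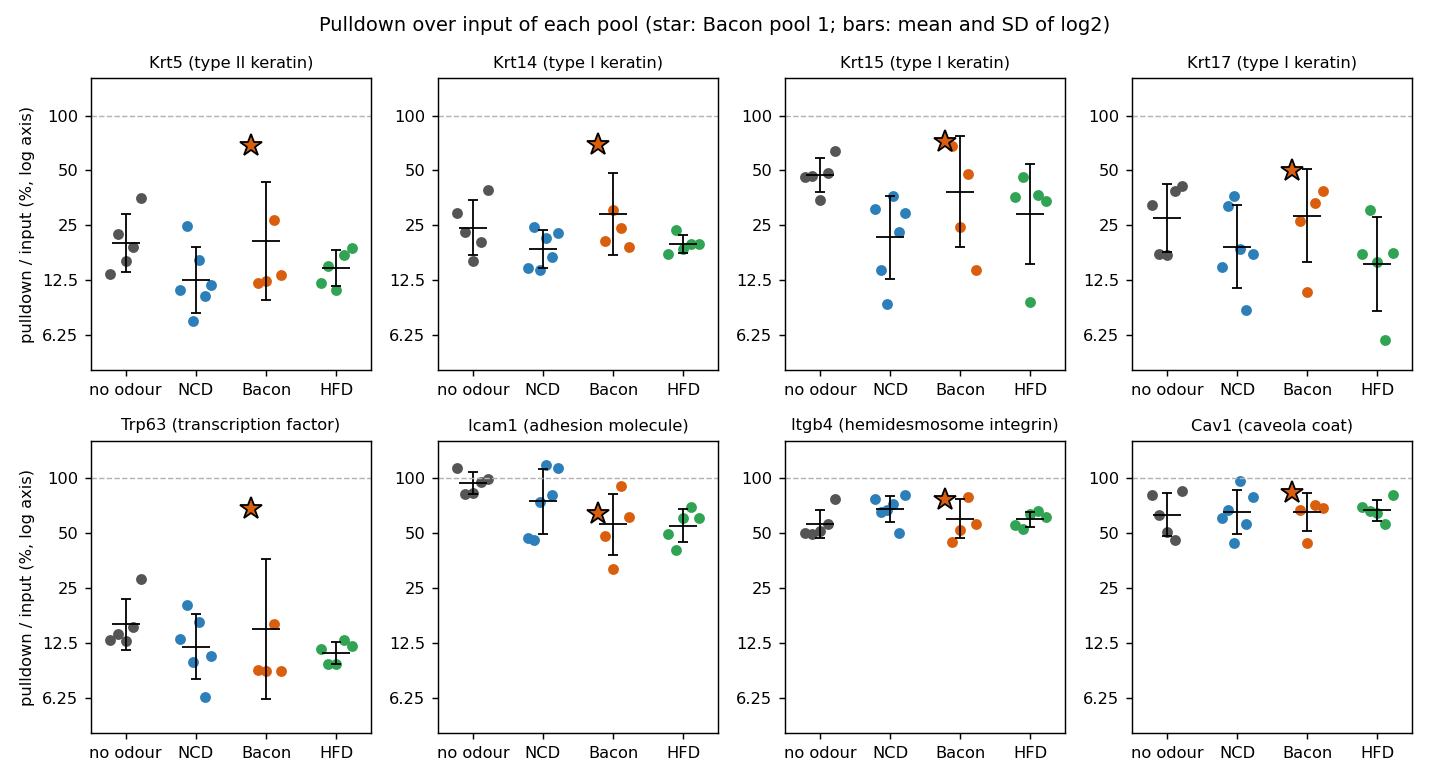
Pulldown over input in percent (log axis) for the 8 genes, with 1 point per pool in the 4 odour groups, mean and SD of the log2 values as bars and Bacon pool 1 as a star. Krt5, Krt14 and Trp63 of Bacon pool 1 lie at 68.2%, 69.2% and 68.2%, above each of the other 20 pools, whereas Icam1, Itgb4 and Cav1 of that pool lie within the range of the others.

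Genes that work with the 8 genes were examined as lists, here described by their counts. Of 12 genes of hemidesmosome and laminin adhesion, 10 were lower in the pulldown and 1 was higher, with a median log2 fold change of -0.51 (edgeR). Col17a1, the collagen of hemidesmosomes, fell by 2.03 (SE 0.15, edgeR adjusted p = 2.69e-12), more like the basal keratins than like Itgb4, and Itgb1, a broadly made integrin, fell by 0.43 (SE 0.03, edgeR adjusted p = 1.60e-13). Of 8 genes of desmosomes and epithelial junctions, 6 were lower and 0 higher, with a median of -0.50, Cdh1 (E-cadherin) having fallen by 1.04 (SE 0.05, edgeR adjusted p = 1.43e-16) and Pkp2 (a desmosome plaque protein) by 1.01 (SE 0.05, edgeR adjusted p = 5.06e-16). Of 6 genes of the caveola coat other than Cav1, 5 were lower and 1 higher, with a median of -0.89, and Ehd2 and Pacsin2, which bind the neck of caveolae, fell by 1.36 (SE 0.07, edgeR adjusted p = 3.91e-15) and 0.56 (SE 0.03, edgeR adjusted p = 2.62e-16). Of 13 genes of Notch and growth factor signalling, 10 were lower and 2 higher, with a median of -0.49, among them Hes1, a Notch target, which fell by 1.02 (SE 0.06, edgeR adjusted p = 5.47e-15), and Fgfr2, a growth factor receptor, which fell by 0.78 (SE 0.04, edgeR adjusted p = 1.23e-15).

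Keratins outside the list were split. Of 10 tested of 12, 5 were higher in the pulldown and 4 lower, near the shares of all genes (40.5% higher and 40.5% lower), with a median log2 fold change of 0.43 (edgeR). Krt10, a keratin of the differentiated layers of stratified epithelium, was higher by 1.39 (SE 0.05, edgeR adjusted p = 1.06e-18), at 12.6 ± 1.68 CPM in the pulldowns against 4.75 ± 0.549 in the inputs (SD, n = 21). Krt1, its partner, was higher by 0.77 (SE 0.09, edgeR adjusted p = 1.29e-08). Krt8, a keratin of simple epithelia, fell by 0.88 (SE 0.04, edgeR adjusted p = 1.92e-17). In the list of stratified squamous cells, which shares 4 keratins with it, 8 of 9 tested genes were higher and 1 lower, with a median of 1.38, and Dmkn, a protein of differentiated epidermis, was higher by 1.46 (SE 0.06, edgeR adjusted p = 5.08e-17). Krt10 and Krt1 were therefore higher in the pulldown where Krt5 and Krt14 were lower.

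Markers of the other cells of the tissue give the scale. Of 6 markers of sustentacular cells, the supporting cells of the epithelium, 6 were lower, with a median log2 fold change of -1.92, and Cyp2g1, an odorant-metabolizing enzyme of these cells, fell by 2.16 (SE 0.10, edgeR adjusted p = 1.11e-13). Of 8 markers of mature olfactory sensory neurons, 6 were higher and 2 lower, with a median of 0.41, and Omp, the olfactory marker protein, was higher by 0.30 (SE 0.04, edgeR adjusted p = 2.08e-08). Globose basal cells, the dividing progenitors above the horizontal ones, were split, with 3 of 6 markers higher and 3 lower and a median of 0.03. Of the lists outside the epithelium, smooth muscle had 6 of 6 lower (Acta2, smooth muscle actin, fell by 2.00, SE 0.11, edgeR adjusted p = 1.35e-12), fibroblasts 7 of 7 lower (Col1a1, a collagen chain, fell by 0.51, SE 0.04, edgeR adjusted p = 2.79e-12) and Schwann and ensheathing cells 6 of 7 lower. Endothelial cells, which share Icam1 and Cav1, had 8 of 11 lower, 2 higher and a median of -0.52, with Pecam1, their junction protein, higher by 0.30 (SE 0.05, edgeR adjusted p = 1.43e-06). White blood cells had 4 of 8 higher and 3 lower, with Ptprc, the common leukocyte antigen, at -0.07 (SE 0.06, edgeR adjusted p = 0.274), and the NF-kB targets grouped with Icam1 had 4 of 9 higher and 2 lower.

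**Figure D2:**
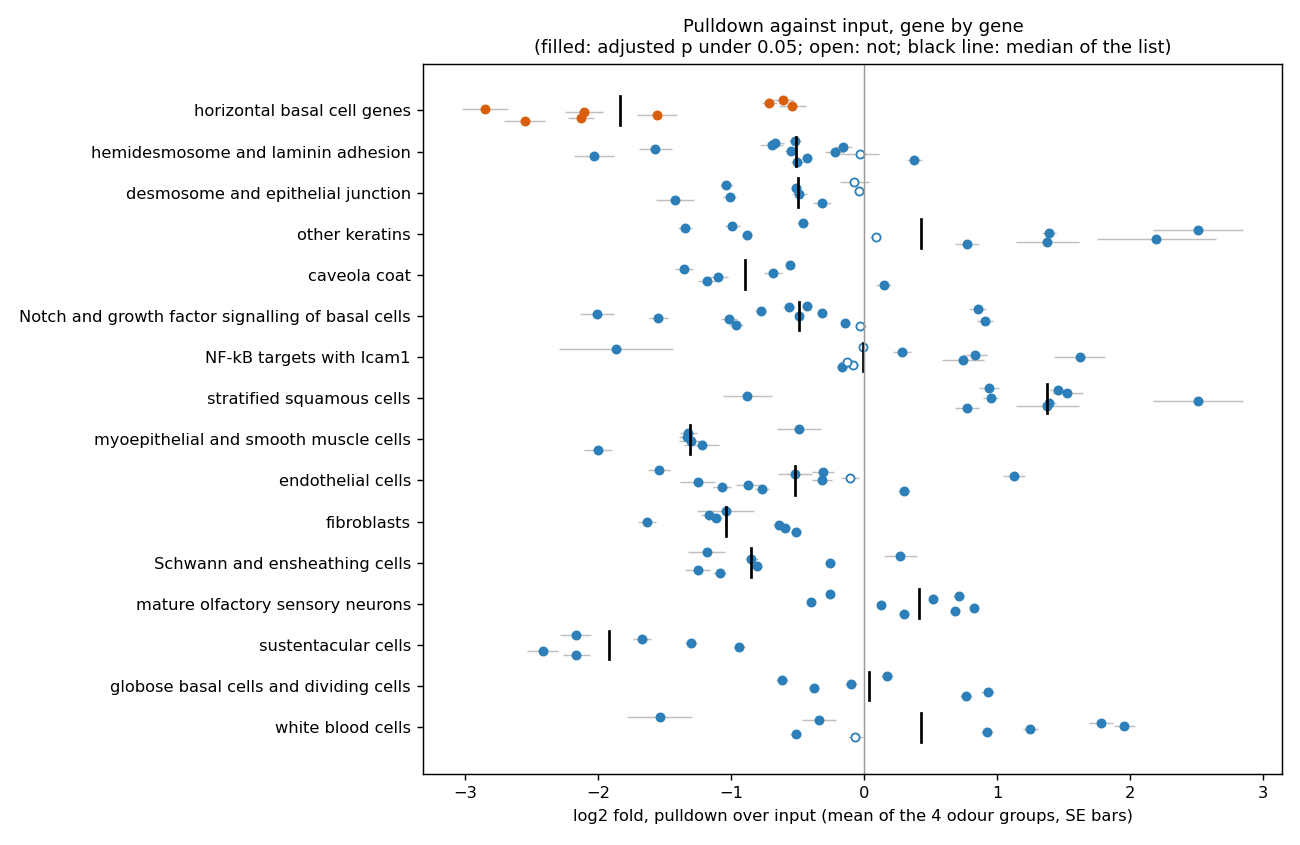
Fitted log2 fold change of pulldown over input for each gene of the list of 8 (orange) and of 15 lists of related genes and other cell types (blue), with SE bars, filled points for an adjusted p under 0.05 and a black line at the median of each list. The horizontal basal cell genes and the sustentacular cell markers have the lowest medians, at -1.83 and -1.92.

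Bacon pool 1 stood apart in the pulldown. Its Krt5 pulldown held 19.1 CPM against an input of 28.0 CPM, a ratio of 68.2%, where the other 20 pools had ratios of 7.41% to 35.5%. Its Trp63 ratio was 68.2% against 6.28% to 27.9%, and its Krt14 ratio 69.2% against 14.1% to 39.1%. Krt15 with 71.8% and Krt17 with 49.8% were also the highest of the 21 pools, though the nearest pool of Krt15 reached 67.9%. The 3 mildly depleted genes did not stand apart, with the ratio of Cav1 (83.3%) at rank 3, that of Itgb4 (76.1%) at rank 5 and that of Icam1 (63.8%) at rank 12 from the top.

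The same pool stood apart in other genes of the same libraries. Messenger RNA of the mitochondrial genome is translated inside mitochondria and not by the ribosomes that carry S6. Its recovery is used here as a stand-in for RNA carried over into the pulldown, which was not measured itself. The pulldown-to-input ratio of these messenger RNAs was 54.9% in Bacon pool 1 and 3.43% to 33.4% in the other 20 pools. The 200 other genes of lowest ratio, chosen by that ratio, had a median ratio of 63.5% in Bacon pool 1 against 21.3% to 41.6% in the others. After Bacon pool 1, the mitochondrial ratio was highest in Bacon pool 4 (33.4%), HFD pool 6 (22.2%), NCD pool 2 (21.5%) and no-odour pool 6 (18.4%), and 13.5% or less in the remaining 16. The high Trp63 value without odour lies in this no-odour pool 6.

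Over the 21 pools the ratios of Krt5, Trp63, Krt14 and Cav1 rose with the mitochondrial ratio by both correlations, on log2 scales and with 8 genes tested. For Krt5, Pearson's r was 0.856 (permutation test, p = 1e-05, the smallest that 100000 resamples can give, Benjamini-Hochberg adjusted p = 8e-05) and Spearman's rho 0.783 (adjusted permutation p = 0.00072), and r was 0.752 without the 2 pools farthest from the median, Bacon pools 1 and 4. For Trp63, r was 0.766 (adjusted permutation p = 0.00036), rho 0.601 (adjusted permutation p = 0.0137) and r 0.642 without these pools. For Krt14, r was 0.644 (adjusted permutation p = 0.00621) and rho 0.505 (adjusted permutation p = 0.0436), and r fell to 0.419 without them, so this relation rests in part on those pools. The relation of Cav1 was r 0.580 and rho 0.645 (adjusted permutation p = 0.0109 and 0.00848, r 0.572 without them). That of Itgb4 was r 0.545 and rho 0.440 (adjusted permutation p = 0.0165 and 0.0630, r 0.383 without them).

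Krt17, Krt15 and Icam1 did not follow the mitochondrial ratio beyond the threshold. Krt17 had r 0.373 and rho 0.386 (adjusted permutation p = 0.112 and 0.0958) and r 0.148 without the 2 pools. Krt15 had r 0.369 and rho 0.439 (adjusted permutation p = 0.112 and 0.0630) and r 0.175 without them. Icam1 had r 0.028 and rho 0.030 (adjusted permutation p = 0.905 and 0.900, r -0.030 without them). The ratios of a pool share the scaling of its 2 libraries, and the part of carried-over RNA in the results was not tested.

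**Figure D3:**
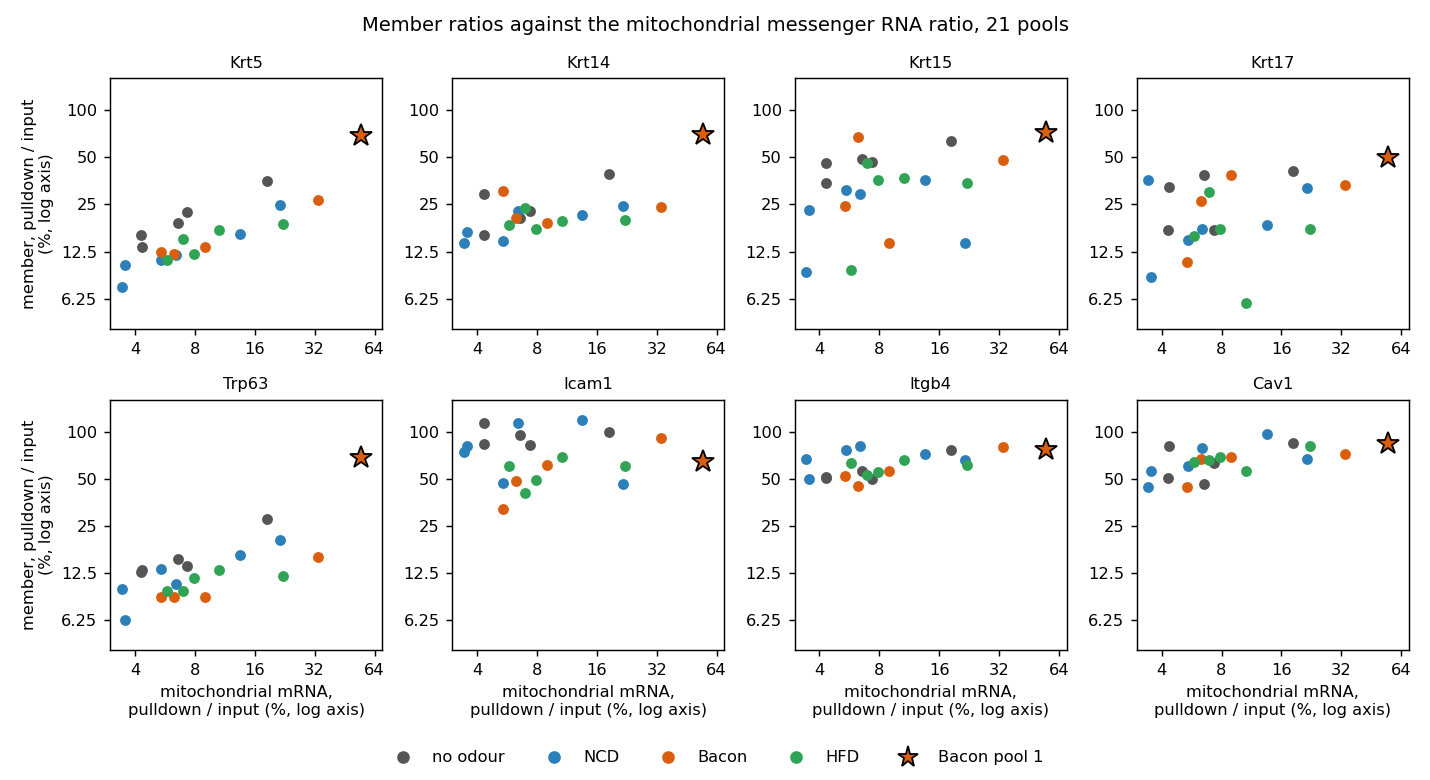
Pulldown over input of each of the 8 genes (percent, log axis) against that of mitochondrial messenger RNA (percent, log axis) in the 21 pools, coloured by odour, with Bacon pool 1 as a star. Krt5 and Trp63 rise with the mitochondrial ratio (r 0.856 and 0.766) and Icam1 does not follow it (r 0.028).

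The ratio was next compared between odours, the comparison for which the design was made. For odour of any kind over none, 0 of the 8 genes passed the threshold in edgeR (1 at an unadjusted p under 0.05, Icam1), and DESeq2 and limma also called 0 (1 each unadjusted), where 25.8% of all genes were called. The count was 0 as well for NCD (13.1% of all genes), Bacon (22.5%) and HFD (15.7%) over no odour, with 1 gene each at an unadjusted p under 0.05 in edgeR, DESeq2 and limma. Between odours edgeR called 0 for Bacon over NCD (0.0283% of all genes called, 2 of the 8 unadjusted), HFD over NCD (0.0709%, 0 unadjusted) and HFD over Bacon (0.109%, 2 unadjusted). DESeq2 and limma also called 0 between odours, each with 1 gene unadjusted for Bacon over NCD and 0 for the other comparisons. The comparisons with no odour share its 5 pools.

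Icam1 came nearest to the threshold. Without odour its pulldown held 2.24, 1.90, 2.13, 2.17 and 2.15 CPM (pools 1, 2, 3, 4 and 6) and its input 1.97, 2.33, 2.57, 2.27 and 2.16 CPM, so that the ratio was 81.9% to 113%. With Bacon odour the pulldown held 1.24, 0.798, 0.865, 1.61 and 1.15 CPM in pools 1 to 5 and the input 1.95, 1.65, 2.72, 1.77 and 1.87 CPM. With HFD odour the pulldown held 0.903, 0.7103, 1.27, 1.17 and 0.870 CPM in pools 1, 2, 3, 5 and 6 and the input 1.83, 1.75, 2.10, 1.68 and 1.44 CPM. The pulldown of each of these 10 pools lay below every pool without odour, while the inputs overlapped.

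With NCD odour the Icam1 pulldown had a lowest value of 0.924, a median of 1.28 and a highest value of 1.82 CPM, and the input 1.25, 1.76 and 2.06 CPM. All 16 pulldowns with odour were therefore below the 5 without, which held for 1.96% of the genes tested (4.78% for NCD alone, 4.54% for Bacon and 7.54% for HFD). The ratio itself separated only HFD from no odour, as it did for 5.46% of the genes. The log2 ratio changed by -0.60 with any odour (SE 0.23, edgeR adjusted p = 0.0527), -0.31 with NCD (SE 0.27, adjusted p = 0.490), -0.73 with Bacon (SE 0.28, adjusted p = 0.0669) and -0.77 with HFD (SE 0.29, adjusted p = 0.0682). Within a group, Icam1 in the pulldown differed from its input by -0.09 without odour (SE 0.20, edgeR adjusted p = 0.718), -0.40 with NCD (SE 0.19, adjusted p = 0.0621), -0.82 with Bacon (SE 0.21, adjusted p = 0.00121) and -0.86 with HFD (SE 0.21, adjusted p = 0.000871).

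The Icam1 change with any odour passed the threshold in 5 of the 21 fits that left out 1 pool. These were the fits without NCD pool 4 (-0.65, edgeR adjusted p = 0.0352), NCD pool 6 (-0.64, adjusted p = 0.0383), Bacon pool 1 (-0.62, adjusted p = 0.0463), Bacon pool 4 (-0.66, adjusted p = 0.0293) and HFD pool 5 (-0.63, adjusted p = 0.0491). The change with Bacon odour alone passed without Bacon pool 4 (-0.91, edgeR adjusted p = 0.0275). Icam1 rested on 22 to 69 counts in a pulldown. Among 9 NF-kB targets grouped with it, 1 rose and 1 fell in ratio with any odour, with a median change of -0.25 (edgeR). Of 8 white blood cell markers, 4 fell in ratio with any odour and 0 rose, with a median of -0.40, where 25.8% of all genes were called in either direction. The summed pulldown of these markers was 342 to 402 CPM without odour and 218 to 305 CPM with it, so that it separated the groups as Icam1 did. The summed pulldown of the globose basal and dividing cell markers also separated them, at 155 to 161 CPM without odour and 117 to 147 CPM with it. The summed pulldown of the endothelial markers was 33.7 to 36.4 CPM without odour. With odour it was 27.6 to 32.5 CPM for NCD, 29.8 to 31.4 for HFD and 29.8 to 37.7 for Bacon, so that only Bacon overlapped. No marker of these lists was at 0 throughout a group, and the part of these cell types in the Icam1 values was not tested.

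**Figure D4:**
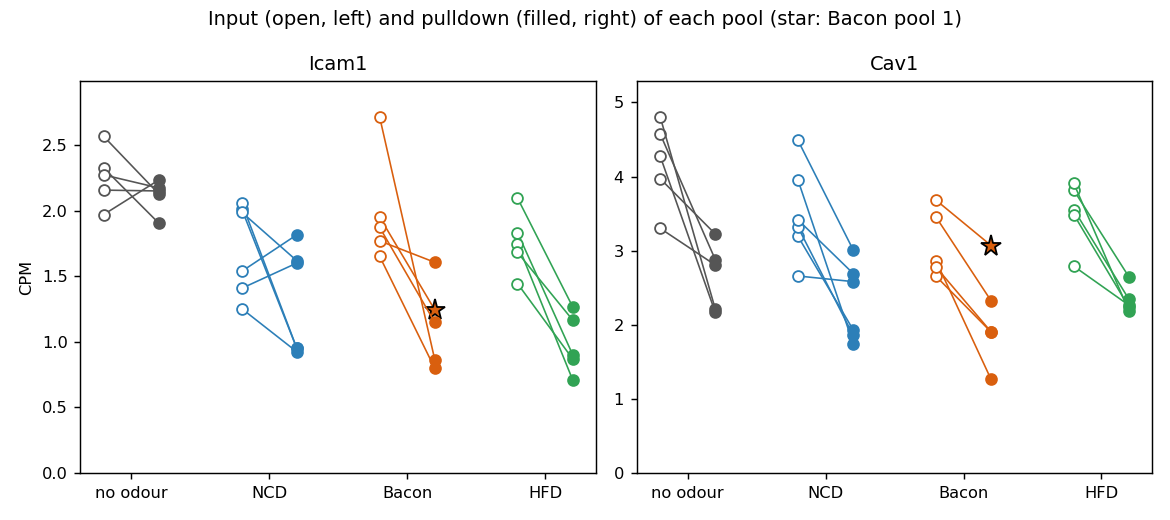
Input (open) and pulldown (filled) levels in CPM of Icam1 and Cav1, with a line for each pool, in the 4 odour groups and with Bacon pool 1 as a star. The 5 Icam1 pulldowns without odour lie between 1.90 and 2.24 CPM, above the 16 with odour, whereas the Cav1 pulldowns overlap between groups.

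Among the strongly depleted genes the ratios of each odour group overlapped those without odour. Krt15 had the widest difference. Its pulldown held 1.07, 1.51, 0.827, 0.562 and 0.561 CPM without odour (pools 1, 2, 3, 4 and 6), against 0.171 to 0.412 CPM with NCD, 0.197 to 0.782 with Bacon and 0.167 to 0.551 with HFD. Its NCD and HFD pulldowns lay below every pool without odour, as did those of 4.78% (NCD) and 7.54% (HFD) of the genes tested. Its ratio overlapped. The log2 ratio of Krt15 changed by -1.07 with NCD (SE 0.42, edgeR adjusted p = 0.0907), -0.15 with Bacon (SE 0.42, adjusted p = 0.843) and -0.62 with HFD (SE 0.43, adjusted p = 0.354). Krt15 rested on 5 to 34 counts in a pulldown.

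Krt5, Krt14 and Trp63 shifted with Bacon pool 1. In the Bacon group the Krt5 pulldown held 19.1, 3.59, 3.82, 9.08 and 4.46 CPM (pools 1 to 5), and the Trp63 pulldown 14.2, 1.78, 1.84, 3.64 and 1.94 CPM. Pools 2, 3 and 5 were alike in both genes and pools 1 and 4 were high. The log2 ratio of Trp63 with Bacon odour changed by 0.03 with all pools (SE 0.50, edgeR adjusted p = 0.981) and by -0.64 without Bacon pool 1 (SE 0.29, adjusted p = 0.115), that of Krt5 by 0.09 (SE 0.44, adjusted p = 0.923) and -0.39 (SE 0.34, adjusted p = 0.449), and that of Krt14 by 0.27 (SE 0.28, adjusted p = 0.553) and -0.11 (SE 0.22, adjusted p = 0.781). For the 8 genes the median change with Bacon odour was 0.08 with and -0.24 without this pool, and with any odour -0.33 and -0.47.

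Without the 5 pools of mitochondrial ratio above 15%, a fit added after the data were seen, 2 of the 8 genes were called for any odour over none, where 30.3% of all genes were. Krt5 then changed by -0.48 (SE 0.16, edgeR adjusted p = 0.0240) and Icam1 by -0.64 (SE 0.24, adjusted p = 0.0492), with Trp63 at -0.43 (SE 0.17, adjusted p = 0.0508). With NCD odour (16.7% of all genes called) Krt5 was called (-0.64, SE 0.18, edgeR adjusted p = 0.0206), and with Bacon odour (27.1%) Trp63 (-0.64, SE 0.22, adjusted p = 0.0343) and Icam1 (-1.01, SE 0.33, adjusted p = 0.0248). With HFD odour (20.6%) 0 were called in edgeR (1 unadjusted, Icam1). The counts were near or below the shares of all genes in the same fit. Whether Krt5, Trp63 and Icam1 were called therefore depended on whether these 5 pools were kept.

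Itgb4 and Cav1 showed little change of ratio. With any odour the log2 ratio of Itgb4 changed by 0.15 (SE 0.14, 95% interval -0.14 to 0.44, edgeR adjusted p = 0.472) and that of Cav1 by 0.06 (SE 0.18, 95% interval -0.30 to 0.43, adjusted p = 0.848). The intervals were wider for the genes of fewer reads or larger spread, from -1.10 to 0.40 for Krt5, -1.15 to 0.52 for Trp63, -0.63 to 0.32 for Krt14 and -1.05 to 0.33 for Krt17. These intervals give the changes that the pools did not exclude.

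The inputs, which read the whole tissue, showed small decreases with odour. For any odour over none 3 of the 8 genes were lower in edgeR and 0 higher, where 19.3% of all genes were lower and 17.9% higher. Krt14 fell by 0.33 on the log2 scale (SE 0.09, edgeR adjusted p = 0.00611), Krt15 by 0.66 (SE 0.22, adjusted p = 0.0193) and Cav1 by 0.32 (SE 0.11, adjusted p = 0.0267). All 8 fitted changes were negative, with a median of -0.23 against -0.01 for all genes, and those of Krt5 (-0.12, SE 0.06, edgeR adjusted p = 0.0952) and Icam1 (-0.31, SE 0.13, adjusted p = 0.0601) did not pass. Trp63 was at -0.03 (SE 0.05, 95% interval -0.14 to 0.07, edgeR adjusted p = 0.670), Itgb4 at -0.05 (SE 0.09, adjusted p = 0.730) and Krt17 at -0.15 (SE 0.15, adjusted p = 0.476).

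The Krt14 input held 7.65, 10.5, 9.44, 9.58 and 8.37 CPM without odour (pools 1, 2, 3, 4 and 6). It ranged from 7.01 to 8.46 CPM with NCD, 5.35 to 7.92 with Bacon and 5.24 to 8.33 with HFD, and 10 of the 16 pools with odour lay below every pool without it. The Krt15 input held 2.33, 3.23, 2.40, 1.16 and 0.883 CPM without odour. Pools 1, 2 and 3 were high, pool 4 lay within the range of the 16 pools with odour, 0.886 to 1.86 CPM, and pool 6 lay just below that range. The Cav1 input held 3.97, 4.58, 4.28, 4.81 and 3.30 CPM without odour and 2.66 to 4.49 CPM with odour. In none of the 3 genes did the groups separate.

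The Krt14 call held in all 21 fits that left out 1 pool. That of Krt15 was lost without no-odour pool 1 (-0.60, edgeR adjusted p = 0.0615), pool 2 (-0.44, adjusted p = 0.141) or pool 3 (-0.59, adjusted p = 0.0644). That of Cav1 was lost without no-odour pool 2 (-0.29, edgeR adjusted p = 0.0679), pool 3 (-0.31, adjusted p = 0.0569) or pool 4 (-0.27, adjusted p = 0.0851). The count of 3 became 1 without no-odour pool 3 and 5 without NCD pool 2.

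By odour, the inputs with Bacon had 3 of the 8 genes called (39.8% of all genes), all lower, Krt14 by 0.42 (SE 0.12, edgeR adjusted p = 0.00518), Cav1 by 0.44 (SE 0.14, adjusted p = 0.0143) and Krt5 by 0.18 (SE 0.07, adjusted p = 0.0447). The Krt5 call was kept by 11 of the 21 fits without 1 pool and was lost without Bacon pool 1 (-0.14, edgeR adjusted p = 0.138), whereas those of Krt14 and Cav1 were kept by all 21. The inputs with HFD had 1 (21.7% of all genes), Krt14 lower by 0.32 (SE 0.12, edgeR adjusted p = 0.0468), a call that 7 of the 21 fits without 1 pool kept. Those with NCD had 0 in edgeR and in DESeq2 (3 unadjusted in each, 23.5% of all genes). Between odours edgeR called 0 for Bacon over NCD (2.63% of all genes), HFD over NCD (0.249%) and HFD over Bacon (0.489%), with 1, 0 and 0 at an unadjusted p under 0.05, and DESeq2 gave the same counts. For NCD, Bacon and HFD the share of the 8 genes called was not above that of all genes. DESeq2 called 4 of the 8 in the inputs with Bacon, with Krt15 in addition.

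**Figure D5:**
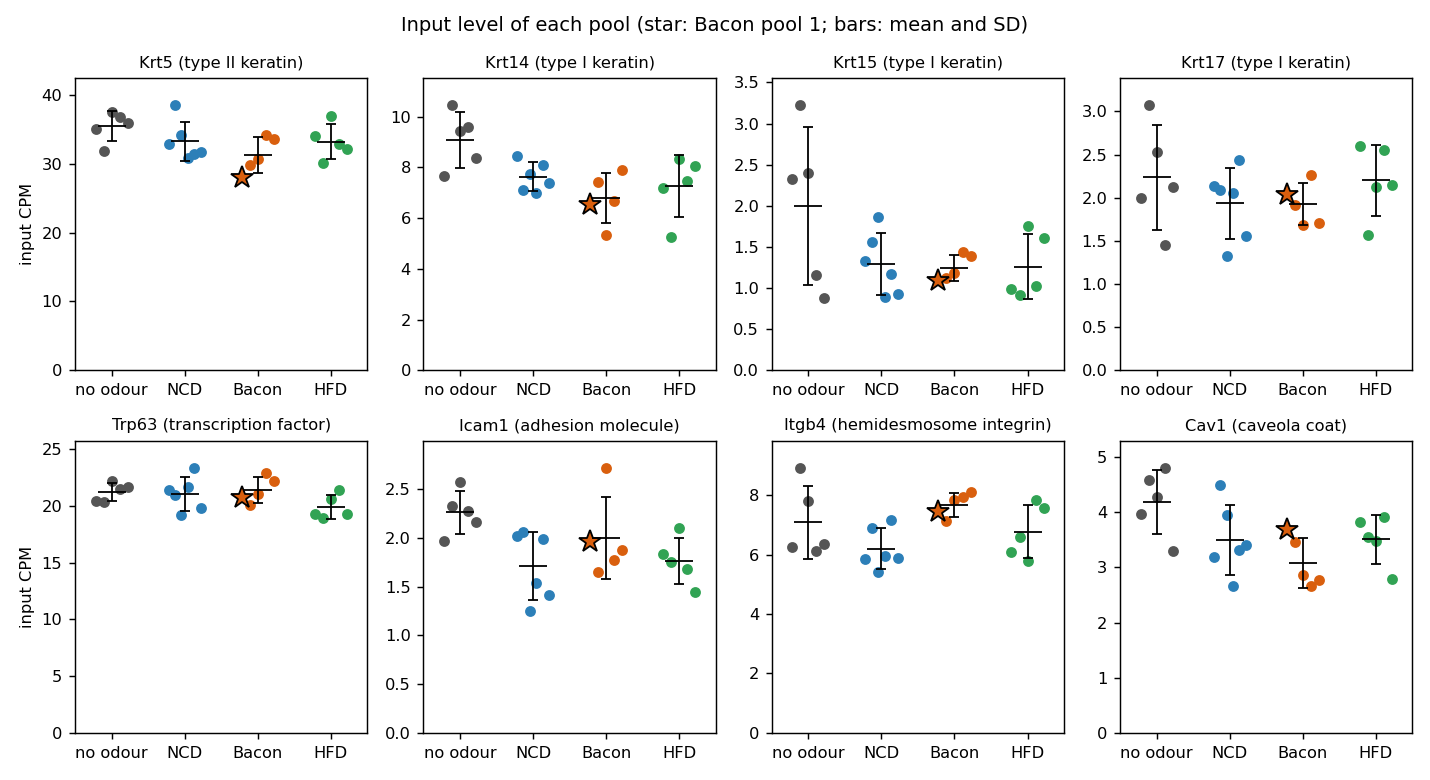
Input level in CPM of each of the 8 genes, with 1 point per pool, mean and SD as bars, in the 4 odour groups and with Bacon pool 1 as a star. Krt14 has its highest mean without odour, 9.10 CPM against 6.78 to 7.63 with odour, and Trp63 stays between 19.0 and 23.4 CPM in all 21 pools.

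Other measures moved with odour in the same inputs. The share of counts on 7 ribosomal RNA genes was 21.7% to 32.2% without odour and 9.75% to 21.9% with it. With that share as a covariate 0 of the 8 genes were called in edgeR for any odour, 10 of all genes were, and the changes became 0.11 for Krt14, 0.03 for Krt15 and -0.33 for Cav1. The share of odour pools and that of pools without odour met only at their ends, so odour and ribosomal RNA share cannot be told apart for these genes. Fibroblast markers were also lower, 5 of 7 in edgeR, with a summed level of 2171 to 3004 CPM without odour and 1651 to 2396 CPM with it, and Col1a1 fell by 0.43 (SE 0.06, edgeR adjusted p = 3.90e-05). Stratified squamous markers were lower in 3 of 7 tested, 35.3 to 49.1 CPM summed without odour and 25.9 to 36.9 CPM with it, and Krt1 fell by 0.57 (SE 0.17, edgeR adjusted p = 0.00957). Endothelial markers were lower in 4 of 11, 42.3 to 46.9 CPM summed without odour and 37.8 to 45.0 CPM with it, and Cldn5, a tight junction protein, fell by 0.58 (SE 0.13, edgeR adjusted p = 0.00106). Of 6 myoepithelial and smooth muscle markers 3 were lower and 1 higher, 245 to 322 CPM summed without odour and 203 to 282 CPM with it, and Tagln, an actin-binding protein of smooth muscle, fell by 0.38 (SE 0.07, edgeR adjusted p = 0.000147). Of 7 Schwann and ensheathing markers 4 were lower and 2 higher, 173 to 228 CPM summed without odour and 154 to 189 CPM with it. No marker of these lists was at 0 throughout a group, and the part of these cell types in the changes of Krt14, Krt15 and Cav1 was not tested.

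The inputs of the lists nearest to the 8 genes differed in direction from list to list. Of 12 hemidesmosome and laminin genes 3 were higher with any odour and 2 lower in edgeR, with Lama5, a laminin chain of the basal lamina, higher by 0.41 (SE 0.13, edgeR adjusted p = 0.0158) and Itgb1 lower by 0.14 (SE 0.05, adjusted p = 0.0264). Of 8 desmosome and junction genes 4 were higher and 1 lower, with Cdh1 higher by 0.29 (SE 0.06, edgeR adjusted p = 0.000315) and Perp, a desmosome protein that p63 switches on, lower by 0.36 (SE 0.06, adjusted p = 7.84e-05). Of 13 Notch and growth factor genes 8 were higher and 2 lower, with Jag1, a Notch ligand, higher by 0.37 (SE 0.06, edgeR adjusted p = 5.86e-05) and Notch2 by 0.30 (SE 0.06, adjusted p = 0.00044). Of 6 caveola genes 0 were higher and 2 lower, Cavin3 by 0.48 (SE 0.11, edgeR adjusted p = 0.00124) and Cavin1 by 0.25 (SE 0.08, adjusted p = 0.0156), the direction of Cav1. Of 7 other keratins tested 3 were lower and 0 higher, with Krt18, a keratin of simple epithelia, lower by 0.37 (SE 0.09, edgeR adjusted p = 0.00141).

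The 8 genes were also compared with each other over the 21 pools after the mean of each odour group was taken off, as a description. In the inputs the correlations among them were weak, with r 0.220 for the partners Krt5 and Krt14, 0.317 for Krt5 and Trp63 and 0.611 for Krt17 and Itgb4, the highest of the 28 pairs. In the ratios the highest values were r 0.912 for Krt5 and Trp63, 0.779 for Krt14 and Trp63, 0.773 for Krt5 and Krt14 and 0.687 for Trp63 and Itgb4. Krt17 had r 0.317 with Krt5, 0.316 with Krt14 and -0.00322 with Krt15, Krt15 had 0.403 with Trp63, and Icam1 had 0.167 with Krt5 and 0.147 with Trp63. Ratios of a pool share 2 libraries, which also carry the mitochondrial ratio above.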

How the data were processed

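The authors estimated counts per gene with Salmon against GRCm38 and deposited 1 table of estimated counts, in which 30.9% of values were not whole. These values were rounded, and genes were named here with GENCODE M21. Genes passing edgeR's filter (a minimum count of 10) were tested with R 4.3.3 and edgeR 4.0.16 (quasi-likelihood, TMM scaling, Benjamini-Hochberg adjusted p under 0.05). The ratio fit held all 42 libraries with a term for each pool, taken from the study's methods, and a pulldown effect for each odour group, and the input fit held the 21 inputs. CPM are counts per TMM-scaled library. The ratio of a pool is pulldown CPM over input CPM, and log2 ratios of single pools add a prior count of 2. DESeq2 1.42.0 and limma 3.58.1 served as alternatives, with another scaling, no filter, a stricter threshold, the ribosomal RNA share, replicate blocks, only the groups compared and each pool left out. Leaving out 5 pools was added after the data were seen. The fits were tested on simulated data.

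The 8 genes and all lists were chosen with earlier results of these data known. Text names the 8 genes, per list the 2 genes of smallest p in each of 2 contrasts, the first gene of each other cell type and the 3 genes most like each of the 8, apart from some items that are not reported here. A pulldown deviated from its group with its own input at a median r of 0.0142, against -0.00416 for other inputs. Inputs of 1 number across odours did so at 0.0200 against -0.00209. The check barely told known pairs from others, so it cannot decide whether pools of 1 number belong together. The labels do not say so either. Intervals cover counting and pool spread as fitted, with 25392812 to 36738330 counts in a pulldown and 24839555 to 36781553 in an input.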

Additional observations from a re-analysis of the deposited data

Results flagged for a closer look

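In 64 groups of 5 or 6 pools (8 genes, pulldown-to-input log2 ratio and input level, 4 odour groups), 3 values lay apart from the rest of their group by Dixon's 95% criterion, which chance alone meets in about 1 in 20 groups. The log2 ratio of Trp63 in Bacon pool 1 was -0.55, where the median of the other 4 pools was -3.46. The log2 ratio of Trp63 in no-odour pool 6 was -1.83, where the median of the others was -2.86. Both pools were among the 5 of highest mitochondrial ratio. The log2 ratio of Krt15 in HFD pool 3 was -2.98, where the median of the others was -1.32, and this pool was not among those 5.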

How the results depend on the processing

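Beside the fits without 1 pool, 114 counts of the 8 genes called stayed within 1.5 times of the reported count and 19 did not. All 8 genes stayed lower in the pulldown in each alternative and in all 21 fits without 1 pool. For the ratio with any odour, 1 gene was called with no replicate block and 1 with a replicate block by number, Icam1 in both (-0.59), and 2 were called without the 5 pools of highest mitochondrial ratio. With only the groups compared, 1 was called for NCD (Krt15), 1 for HFD (Icam1) and 1 in the input for Bacon over NCD (Itgb4). Without the 5 pools the ratio gave 1 for NCD and 2 for Bacon, and the inputs 2 for NCD and 2 for HFD. At an adjusted p under 0.001 the inputs gave 0 for any odour, Bacon and HFD, and when the fit adjusted for ribosomal RNA also 0 for each, the changes with any odour turning to 0.11 (Krt14), 0.0305 (Krt15), 0.0573 (Krt17) and 0.12 (Itgb4). The input call of HFD was 0 with no filter, with the replicate block by number and with only the groups compared. The causes were not tested. Without 1 pool the count ranged from 0 to 1 (ratio, any odour and Bacon), 1 to 5 (input, any odour), 0 to 1 (input, NCD), 0 to 2 (input, HFD) and 0 to 1 (input, Bacon over NCD), and the changes with any odour spanned -0.29 to 0.0393 (Krt14 ratio), -0.0456 to 0.17 (Cav1 ratio) and -0.10 to 0.0396 (Itgb4 input). The replicate block moved no other count by over 1.5 times. Few counts limited Krt15, Krt17 and Icam1, and the ratio rests on the average gene being equal between libraries.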

Other observations

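Among 16306 genes of at least 1 CPM in the mean input, those that varied most like each of the 8 genes over the 21 inputs, after the mean of each odour group was taken off, are given here as a description without a test, since the inputs share scaling and depth. For Krt5 they were Slc35g1 (r 0.791), Ndufaf1 (0.756) and Gpr162 (0.754), and for Krt14 Mapk8ip1 (0.869), Snx8 (0.867) and Edem2 (0.861). For Krt15 they were Flot2 (0.845), Obp2a (0.827) and Fgf14 (0.813), and for Krt17 Ehmt2 (0.825), Pigv (0.809) and Rasa3 (0.794). For Trp63 they were Ippk (0.725), Gm37706 (0.667) and Tango6 (0.666), and for Icam1 Rasd1 (0.739), Atp6v1b1 (0.734) and Efcab12 (0.723). For Itgb4 they were Siah2 (0.751), C230021G24Rik (0.746) and Bcat1 (0.740), and for Cav1 Gimap6 (0.728), Igfbp4 (0.699) and Kctd12 (0.693). None of these genes is on the lists of basal cell adhesion, junction or signalling genes.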
